A study of Mus musculus with 5 samples.

Results

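The mRNAs of the mitochondrial ribosomal proteins were taken as all mm10 protein-coding genes of GENCODE M21 whose symbol starts with Mrpl (large subunit) or Mrps (small subunit) followed by a digit, and calls were assigned to their exons on the strand of the call. These were 78 of 21951 protein-coding genes, 49 named for the large and 29 for the small subunit. Subunits follow the symbols here, although the proteins of Mrps18a and Mrps30 are placed in the large subunit in structures of the mammalian ribosome. In the METTL3 inhibition dataset 60 of the 78 had covered positions, with 25 valid calls or more in every library, among 2607 covered genes, and in the Mettl5 dataset 17 of 1009. The other 18 genes had no covered position in the METTL3 inhibition dataset.

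The study asked whether METTL5 contributes to m6A in mRNA of mouse embryonic stem cells (mESCs), with inhibition of METTL3 as a check of the m6A calls, by nanopore direct RNA sequencing, in which each adenosine of a native RNA read receives a call of m6A, unmodified A or another modification. The METTL3 inhibition dataset compared 1 library of cells given 30 μM STM2457, a catalytic METTL3 inhibitor, for 48 h with 1 library of cells given 0.025% v/v DMSO, its solvent. Both came from 1 engineered E14 line, whose genotype the labels give as WT. It carried the reporters 2C::3xtbGFP-PEST and Zscan4::mCherry-PEST, a doxycycline-driven APOBEC1-YTH-HA-IRES-tdiRFP transgene that was not induced, and a homozygous FKBP12-F36V tag on the C terminus of METTL3, also not induced. The Mettl5 dataset compared untreated WT mESCs with 2 Mettl5 knockout (Mettl5-KO) clones, clone 1 and clone 2, with 1 library each. Each dataset carries a single batch label. Mettl3 and Mettl5 themselves had 0 covered positions in either dataset, so the genotypes could not be checked on the targeted genes. All 10 mESC marker genes looked up had covered positions in the METTL3 inhibition dataset and 7 of the 10 in the Mettl5 dataset. For Klf4 these were only 2 positions of the METTL3 inhibition dataset, at a median of 25 valid calls in DMSO.

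Mitochondrial ribosomal proteins are encoded in the nucleus, translated in the cytosol and imported into mitochondria, where they assemble with mitochondrial rRNA into the ribosome that makes the membrane proteins of the respiratory chain encoded by mitochondrial DNA. Many descend from bacterial ribosomal proteins, and others were acquired only in mitochondria. m6A on mRNA is written mainly by the METTL3-METTL14 complex at DRACH motifs (D is A, G or U, R is A or G, and H is A, C or U), typically in long internal exons and in last exons near the stop codon, away from exon junctions.

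The methylation level of a position is the share of its valid calls that were m6A. A site was a position with more than 25 valid calls in every library of a dataset and with 25% or more m6A in any of them. The mitochondrial ribosomal protein mRNAs held 156 of 6159 sites in the comparison of STM2457 with DMSO, on 47 genes, and 21 of 1847 in the Mettl5 dataset, on 10 genes. The valid calls over all positions ranged from 17897440 in Mettl5-KO clone 1 to 71574467 in DMSO. Just below the 25% threshold, 30 further positions of the group had between 20% and 25% in DMSO, the highest of them 24.7%. Over the covered mitochondrial ribosomal protein genes, the median number of valid calls per position ran from 33 for Mrpl41 to 362.5 for Mrpl52 in DMSO and from 26 to 280 in STM2457.

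The 10 sites most methylated in DMSO, taken where both libraries gave 50 reads or more, are shown first because they carry the strongest methylation of the group. Sequences are from GENCODE M21 transcripts (mm10), written 5′ to 3′ in the sense of the mRNA, with the motif of the called A, which is its middle base, in capitals.
Mrpl14, chr17:45698315-45698335, plus strand: ccctgtggGGACTcgaattaa
Mrpl46, chr7:78775462-78775482, minus strand: actctgatGGACTcagctgcc
Mrpl12, chr11:120488448-120488468, plus strand: ggacttacGGACTagagttct
Mrpl45, chr11:97328752-97328772, plus strand: agacaaaaAGACTcctgaggt
Mrps35, chr6:147070795-147070815, plus strand: ctgtgaagAGACTgttaaatt
Mrpl40, chr16:18872324-18872344, minus strand: aagataagAGACTgaaaactg
Mrps23, chr11:88210803-88210823, plus strand: aagctgatGGACTctgatggc
Mrps7, chr11:115607131-115607151, plus strand: tttccaaaGGACCtggtttga
Mrpl57, chr14:57826839-57826859, plus strand: tggataccGGACTgctctatc
Mrpl12, chr11:120488440-120488460, plus strand: ggttatgaGGACTtacggact
Of these motifs 6 were GGACT, 3 AGACT and 1 GGACC.

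The Mrpl14 site lies in the coding sequence 89 bases before the end of the stop codon, and Mrpl14 encodes the mitochondrial counterpart of bacterial uL14. It was m6A in 124 of 125 reads in DMSO, a level of 99.2% (exact 95% interval 95.6 to 100), and in 48 of 165 reads in STM2457, or 29.1% (22.3 to 36.7). The Mrpl46 site, 15 bases before the end of the stop codon, was at 98.6% of 70 reads in DMSO and at 34.1% of 82 reads in STM2457. So nearly every read of both mRNAs was called m6A at these bases in DMSO, and a minority was in STM2457. Mrpl12, whose protein forms the flexible stalk of the large subunit, had 97.2% of 108 reads at its site 24 bases after the stop codon in DMSO and 39.5% of 81 reads in STM2457. Mrpl45, whose protein sits near the exit of the peptide tunnel, had 96.8% of 126 reads and 46.6% of 116 reads. Mrps35 had 95.7% of 116 reads and 38.9% of 90 reads. In each of these mRNAs too the called share was under 50% in STM2457.

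At its site 4 bases after the stop codon, Mrpl40 went from 95.4% of 131 reads to 49.6% of 125, the smallest relative decrease among these 10. Mrps23 fell from 94.9% of 78 reads to 32.1% of 81, Mrps7, which encodes the counterpart of bacterial uS7, from 94.7% of 75 reads to 31.9% of 72, and Mrpl57 from 94.3% of 157 reads to 35.2% of 142. The second Mrpl12 site, 8 bases upstream of the first, fell from 94.2% of 103 reads to 24.4% of 78. All 10 were lower in STM2457 by Fisher's exact test on m6A and unmodified calls, two-sided, with adjusted p between 1.93e-38 (Mrpl14) and 1.8e-15 (Mrps7). The adjustment is Benjamini-Hochberg over the 6159 sites of the dataset. Because these sites were picked by their DMSO level, which the test also uses, a lower level in STM2457 was favoured from the start. Since each condition had 1 library, such a p speaks of the pair of libraries rather than of the treatment, and all intervals given cover counting error only.

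The 156 sites had a median of 53.9% with DMSO and 10.9% with the inhibitor, where all sites had 52.0% and 10.5%. The level was lower in value after STM2457 at 153 of the 156 sites, and Fisher's exact test called 147 of them lower at an adjusted p below 0.05, where the background over all sites was 91.6% called lower. The test called 2 sites higher, with a background of 0.292%. The mean relative decrease (the difference between DMSO and STM2457 as a share of the DMSO value) was 74.4% ± 32.6 (SD over 156 sites) and its median 80.7%, against a mean of 71.9% and a median of 79.9% over all sites. These shares are close to those of all mRNAs, and no difference between the groups of genes was tested. Of the 156 sites, 154 reached the required 25% in DMSO and 30 in STM2457, and of all 6159 sites 6056 and 1363. Most sites thus entered through the library where they were high, which favours a lower level in STM2457. The 2 sites called higher entered through STM2457 alone, which favours a higher level there. The counts of sites called lower or higher, here and by gene below, describe sites chosen in this way.

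**Figure D1:**
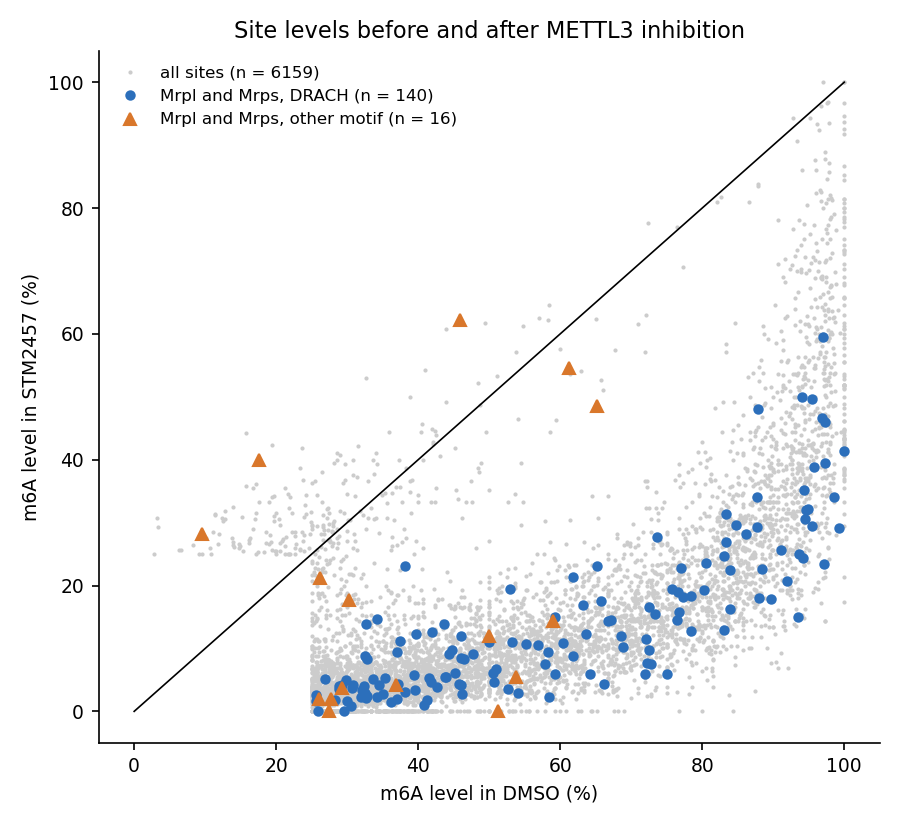
Level of each site in DMSO (x axis, %) against STM2457 (y axis, %), with all 6159 sites in grey, the 140 mitochondrial ribosomal protein sites in a DRACH motif as blue circles, the other 16 as orange triangles, and the line of equal levels. All blue circles lie below the line, and the 3 mitochondrial ribosomal protein points above it are orange.

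Sites with a higher level in DMSO kept a higher level in STM2457, as the scatter of both levels shows. Among the sites in a DRACH motif, the 58 between 25% and 50% in DMSO had a median of 4.25% in STM2457 and none reached 25%. The 36 sites between 50% and 75% had a median of 10.6%, and 1 of them stayed at 25% or more. For the 25 sites between 75% and 90% the median was 19.5% with 7 at 25% or more, and for the 21 sites at 90% or more it was 32.1% with 17. The median relative decrease of these bands was 87.7%, 83.2%, 74.5% and 66.2%. Over all genes the bands had medians of 87.0%, 82.2%, 73.6% and 55.2% in the same order. The highest level left in a DRACH motif was in Mrpl41, at a GGACA in the coding sequence which had 97.1% of 34 reads with DMSO against 59.6% of 47 with the inhibitor, named here after its value was seen.

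Of the 156 sites, 90 were on large-subunit mRNAs, with a median of 57.4% in DMSO and 12.9% in STM2457, and 66 on small-subunit mRNAs, with 50.5% and 8.54%. By a list that follows the current naming of ribosomal proteins, 46 of the 78 genes were counted as having a bacterial homolog. Their mRNAs held 85 sites with medians of 50.7% and 9.76%. The other 32 genes, with Mrps18a and Mrps18b but not Mrps18c among them, held 71 sites with medians of 60.4% and 12%. Homology itself was not examined. The levels on both subunits overlapped, as the plot of sites by gene shows.

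**Figure D2:**
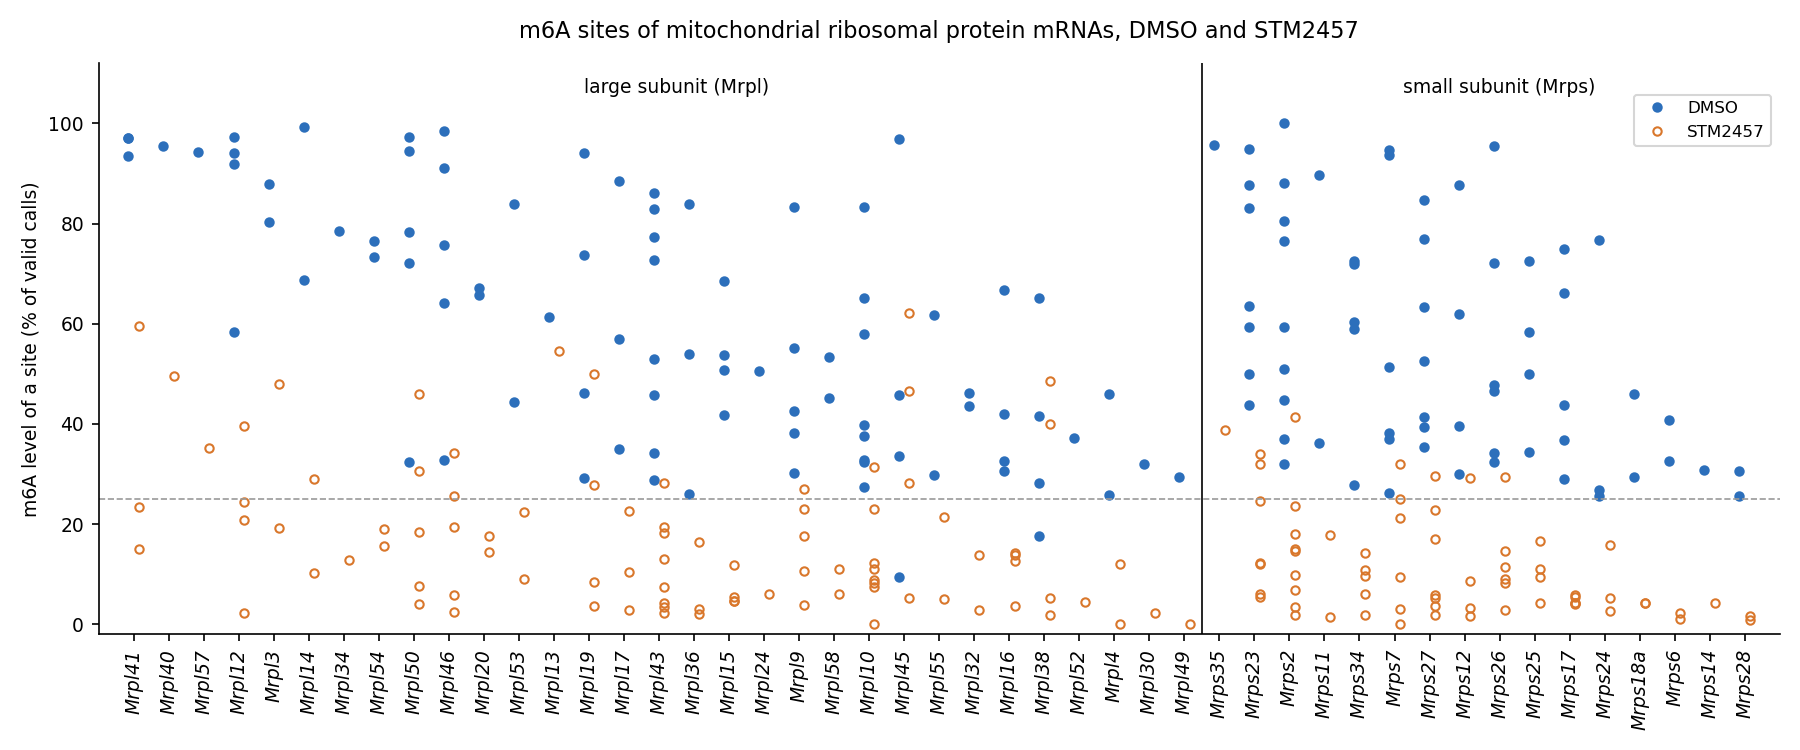
Level (% of valid calls) of each of the 156 sites in DMSO (filled blue) and STM2457 (open orange), by gene, for the large subunit on the left and the small subunit on the right of the vertical line, ordered by the mean DMSO level of a gene's sites. The dashed line marks 25%, and most open circles lie below it (126 of 156) while 154 filled circles lie on or above it.

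On the large subunit, Mrpl43 and Mrpl10 each carried 8 sites. Mrpl10, whose protein anchors the stalk, had a mean over its sites of 47.0% in DMSO and 12.8% in STM2457, and Mrpl43 of 60.1% and 12%. All 16 sites of these genes were lower after STM2457. Mrpl46 carried 5 sites with means of 72.5% and 17.5%, Mrpl50 5 sites with 74.9% and 21.3%, and Mrpl9 5 sites with 49.9% and 16.4%. In Mrpl9 only 3 of the 5 sites passed the test, at a median of 26 valid calls per position in STM2457, the lowest depth among the covered genes. The other 2, at 309 and 662 bases after the stop codon, had 38.2% in DMSO and 23.1% in STM2457 (adjusted p = 0.225 by Fisher's exact test) and 30.2% and 17.6% (adjusted p = 0.227 by Fisher's exact test), so a difference was not detectable at this depth.

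Among the genes with 4 sites, Mrpl12 had the highest mean in DMSO, 85.4%, and 21.7% in STM2457. Mrpl15 had 53.8% and 6.72%, Mrpl19 60.8% and 22.5%, and Mrpl16 43.0% and 11.1%, and these encode counterparts of bacterial uL15, bL19 and uL16. All 16 sites of these 4 genes were lower after STM2457. Mrpl45 and Mrpl38, also with 4 sites each, had 2 sites each that fell and 2 that did not pass as lower. Mrpl41 had the highest mean of the genes with 3 sites, 95.9% in DMSO and 32.7% in STM2457, with between 31 and 35 reads per site in DMSO. Mrpl17 had 60.2% and 12% and Mrpl36 54.7% and 7.13%. Genes with 2 sites included Mrpl14, with means of 84.0% and 19.7%, Mrpl54, with 75% and 17.2%, and Mrpl58, a peptidyl-tRNA hydrolase built into the large subunit, with 49.2% and 8.54%. Mrpl53 had 64.1% and 15.8%, but both of its sites lie on exons shared on the same strand with the protein-coding gene model Gm42688, so its reads could not be told apart from that model's.

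On the small subunit, Mrps2, the counterpart of bacterial uS2, carried 9 sites, the most of any gene in the group. The levels of the 9 sites in DMSO ran from 32.1% to 100%, the highest being a GGACA with m6A in 49 of 49 reads, and the means were 63.2% in DMSO and 14.9% in STM2457. Of these sites 7 lay in the coding sequence, the farthest 496 bases before the end of the stop codon. Mrps27, which encodes a pentatricopeptide repeat protein, and Mrps23 had 7 sites each, with means of 56.2% and 12.3% and of 68.9% and 18.1%. Mrps7 and Mrps26 had 6 each, with 56.8% and 15.1% and with 54.7% and 12.7%. All sites of Mrps2, Mrps27 and Mrps23 were lower after STM2457, as were 5 of 6 in Mrps7 and in Mrps26. The remaining Mrps26 site had 34.1% of 41 reads and 14.7% of 34 reads in the same order (adjusted p = 0.0708 by Fisher's exact test).

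Mrps34 and Mrps17 had 5 sites each, with means of 58.3% and 8.54% and of 50.1% and 4.77%. Mrps12, which encodes the counterpart of uS12 at the decoding centre, and Mrps25 had 4 each, with 54.8% and 10.8% and with 53.8% and 10.3%. Mrps24 had 3 sites with 43.0% and 7.89%, Mrps28 2 sites with 28.1% and 1.26%, and Mrps6 2 sites with 36.7% and 1.59%. Every site of these 7 genes was lower after STM2457. Across the group, every site was called lower in 41 of the 47 genes, and 20 genes with 4 or more sites held 108 of the 156 sites.

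Summed over all covered positions of a gene, the level in DMSO ran from 0.565% (Mrpl28) to 4.90% (Mrpl46) with a median of 2.03% over 60 genes. In STM2457 it ran from 0.481% to 1.81% with a median of 0.996%. This gene level was lower in value after STM2457 in 57 of 60 genes, and the 3 exceptions were Mrpl30, Mrps15 and Mrps31. Mrps15 had 0.796% and 0.863%, and Mrps31 0.761% and 1.002%, both without a site. Mrpl30 had 0.979% and 1.03%, although its single site fell from 31.9% to 2.33%. The depth of the genes themselves, as the log2 ratio of reads in STM2457 to DMSO relative to the ratio over all positions, had a median of 0.21 over the 60 genes, from -0.70 (Mrpl37) to 1.01 (Mrpl43), against a median of 0.12 over all 2607 genes and percentiles (5th to 95th) of -0.59 to 0.90. Only Mrpl37 and Mrpl43 lay outside those percentiles. These depths have no replicate check, and in bulk RNA fewer cells of a type and less RNA per cell cannot be told apart.

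Most sites lay near the end of the coding sequence. Of the 156 sites, 155 lay in the last exon, 56 in coding sequence (the stop codon included), 100 in 3′ UTRs and 0 in 5′ UTRs. Within 100 bases of the end of the stop codon there were 83 sites and within 200 bases 121, or 77.6%, against 48.1% of all sites. The distances ran from 496 bases before to 881 bases after the stop codon, both in Mrps2. Of the covered positions, 83.3% lay in last exons, against 72.3% over all genes. Direct RNA reads start at the poly(A) tail. The share of covered positions within 200 bases of the stop codon was not counted, so the part of coverage in these shares was not tested. Median levels were 48.7% in DMSO and 10.6% in STM2457 for the coding sequence and 56.0% and 11% for 3′ UTRs.

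**Figure D3:**
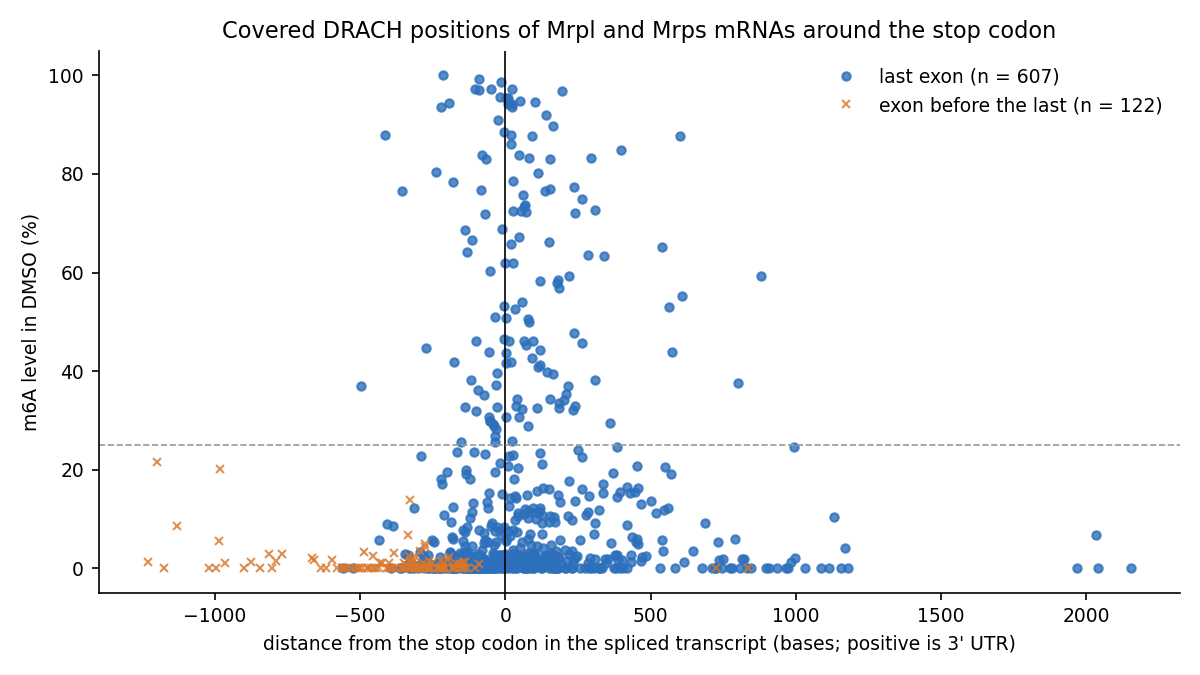
Level in DMSO (y axis, %) of every covered DRACH position in mitochondrial ribosomal protein mRNAs by its distance in the spliced transcript from the end of the stop codon (x axis, bases), for the last exon (blue circles, 607 positions) and earlier exons (orange crosses, 122 positions). Values at or above the dashed 25% line come from last exons only.

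The group's sites in a DRACH motif were all in last exons, as the plot by distance from the stop codon shows. In exons before the last, 0 of 122 covered DRACH positions reached 25% in DMSO (exact 95% interval 0 to 2.98%). The highest, 21.6% of 97 reads, was a GGACT in the first exon of Mrpl37, an exon of 419 bases, and the median exon length of these 122 positions was 159 bases. In last exons 140 of 607 reached 25%, or 23.1% (19.8 to 26.6). Over all genes the shares were 4.13% of 10646 positions in earlier exons and 17.9% of 26603 positions in last exons, and the earlier exons of 400 bases or more held most of the former, with 21.8% against 0.206% in exons under 200 bases. DRACH positions of 1 mRNA share reads and are not independent, and the difference from all genes was not tested.

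The start of the last exon was also low. Within 100 bases of its junction, 3 of 127 DRACH positions reached 25%, or 2.36% (exact 95% interval 0.490 to 6.75), and beyond 100 bases 137 of 480, or 28.5% (24.5 to 32.8). The 3 were in Mrps11, 14 bases from the junction at 36.1% of 72 reads, in Mrpl58 and in Mrps2. The share was highest, 47.4% (37 of 78), from 300 to under 400 bases and was 11.3% (9 of 80) at 600 bases or more. Over all genes it was 4.82% within 100 bases and 20.4% beyond, and 24.4% from 300 to under 400 bases.

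**Figure D4:**
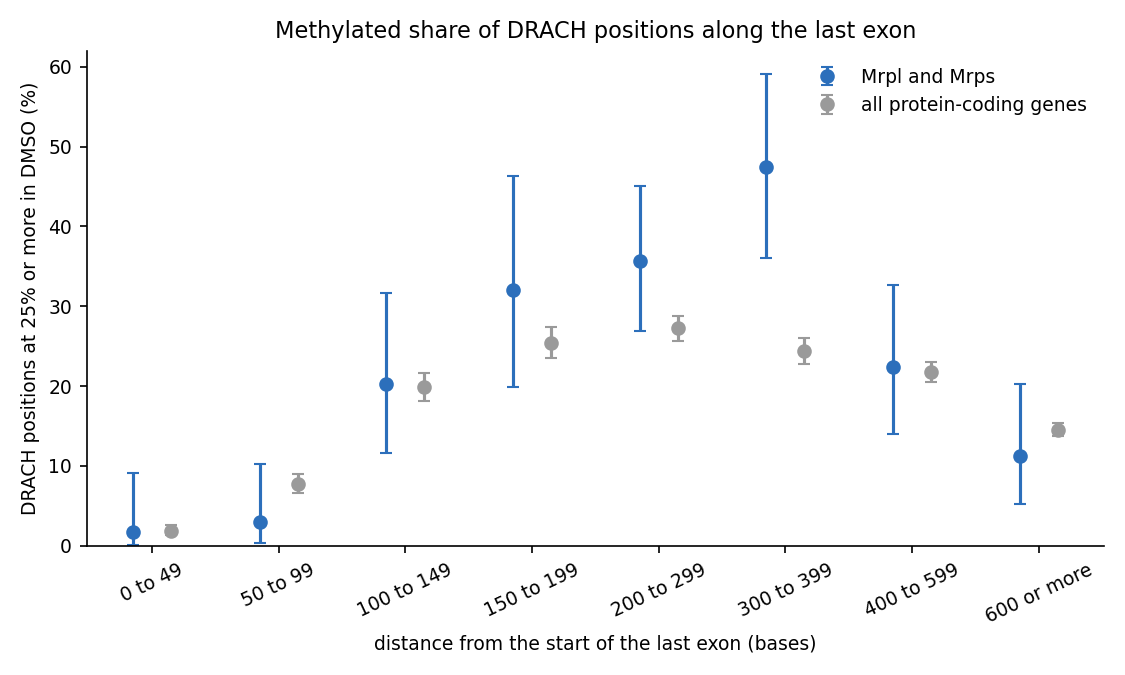
Share of covered DRACH positions at 25% or more in DMSO (y axis, %) by distance from the start of the last exon (x axis, bases), for mitochondrial ribosomal protein mRNAs (blue) and all protein-coding genes (grey). Bars are exact 95% binomial intervals for counting error only, and the blue points run from 1.69% in the bin under 50 bases to 47.4% in the bin from 300 to under 400 bases.

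Motifs differed in level. Of the 156 sites, 140 (89.7%) had a DRACH motif, against 88.7% of all sites. Among covered last-exon positions of the group, 31 of 42 GGACT reached 25% in DMSO, 30 of 50 AGACT, 21 of 40 GAACT and 15 of 42 GGACA, while 1 of 41 AAACA and 1 of 32 TGACC did. Of the motifs with at least 8 sites, GGACC had the highest median in DMSO, 76.6% over 9 sites, followed by GGACT with 72.5% over 31 sites. AGACT had 65.0%, GGACA 61.8%, GAACT 55.2%, TGACT 43.9% and AAACT 33.4%. These medians leave out positions under 25%, and only 9 of 27 covered GGACC positions in last exons of the group reached it. Over all genes the order was reversed, with a median of 48.6% over 508 GGACC sites and 73.7% over 1344 GGACT sites. The 3 motifs with the largest shares in the group thus ended in T. Over all genes the shares in last exons were 68.3% for GGACT, 45.7% for GAACT, 42.7% for GGACA, 40.0% for AGACT, 26.9% for GGACC and 0.660% for AAACA.

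In 8 genes a pair of sites lay 10 bases apart or less, so that their levels come from nearly the same reads. They are printed with both motifs in capitals, because neighbours in the same molecules differed widely in level.
Mrpl45, chr11:97328747-97328769, plus strand: aaaaaAGACAaaaAGACTcctga
Mrpl9, chr3:94447996-94448019, plus strand: catgtGGACTcagcAGACTgagct
Mrps27, chr13:99415126-99415148, plus strand: gccctGAACTaagTGACAaacgg
Mrps17, chr5:129718298-129718321, plus strand: tctctGAACTgaagGTACTgatta
Mrpl19, chr6:81961865-81961884, minus strand: gccctGAACTTGACTctgga
Mrps26, chr2:130565286-130565305, plus strand: ggatcGGACTGGACTgtgtc
Mrpl46, chr7:78775465-78775489, minus strand: ctcctGGACTctgatGGACTcagct
Mrpl12, chr11:120488443-120488465, plus strand: tatgaGGACTtacGGACTagagt
In Mrpl45 the AGACA was at 33.6% and the AGACT 8 bases downstream at 96.8% in DMSO. In Mrpl9 the GGACT was at 83.3% and the AGACT at 42.6%, and in Mrps27 the GAACT was at 77.0% and the TGACA at 39.4%. The upstream and downstream levels were 66.2% and 36.8% in Mrps17, 46.1% and 73.7% in Mrpl19 and 47.7% and 72.1% in Mrps26. The pairs in Mrpl46 and Mrpl12, both of 2 GGACT motifs, differed least, with 91.0% and 98.6% and with 94.2% and 97.2%. The difference within a pair ran from 3.05 to 63.2 percentage points and exceeded 25 points in 5 of the 8 pairs. All 16 of these sites were lower after STM2457.

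At 4 sites the called A was part of the stop codon or the first base after it, and these are printed because the codon and the motif overlap.
Mrps12, chr7:28739859-28739879, minus strand: agaagaaaTGACAgtaattca
Mrpl15, chr1:4776453-4776473, minus strand: cagctcctGAACTgccttcta
Mrpl32, chr13:14610475-14610495, minus strand: ccagaattGAACTaaaaaatg
Mrps7, chr11:115607028-115607048, plus strand: cgctggtgGTAGCaggagagg
In Mrps12 the A is the last base of a TGA stop codon, where 61.9% of 194 reads carried m6A with DMSO and 8.74% of 183 with the inhibitor. In Mrpl15 and Mrpl32 the A follows a TGA stop codon directly. Mrpl15 had 50.7% of 278 reads and 4.71% of 255 reads, and Mrpl32 had 43.6% of 39 reads and 13.9% of 36 reads. These 3 DRACH sites fell after STM2457. In Mrps7 the A is the middle base of a TAG stop codon outside a DRACH motif, and its level was 26.2% of 42 reads (exact 95% interval 13.9 to 42.0) and 21.3% of 47 reads (10.7 to 35.7), a difference that was not detectable at this depth (adjusted p = 0.638 by Fisher's exact test).

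The relative decrease was under 25% at 5 of the 156 sites, with a background of 5.91%, and all 5 lay outside DRACH motifs. Apart from the Mrps7 stop codon site they are shown here, with the called A again the middle of the capitals.
Mrpl45, chr11:97328548-97328568, plus strand: cagaagccTCAGCtagcctga
Mrpl45, chr11:97329006-97329026, plus strand: ttttcccaGCAGCagcaagct
Mrpl38, chr11:116131997-116132017, minus strand: gagcccacCTATGgaatctac
Mrpl13, chr15:55534224-55534244, minus strand: gagagaaaCCATGggaactcc
The first Mrpl45 position, at the end of the coding sequence, had 9.52% of 84 reads with DMSO against 28.2% of 78 with the inhibitor (adjusted p = 0.00297 by Fisher's exact test). The Mrpl38 position, also in the coding sequence, had 17.6% of 51 reads and 40% of 30 reads (adjusted p = 0.0418 by Fisher's exact test). These are the 2 sites called higher, and neither reached 25% in DMSO. Both entered through STM2457 alone, which favours a higher level there, so no conclusion is drawn from these 2 calls. The second Mrpl45 position, in the 3′ UTR, had 45.8% of 48 reads and 62.2% of 37 reads (adjusted p = 0.199 by Fisher's exact test), and the Mrpl13 position had 61.3% of 31 reads and 54.5% of 33 reads (adjusted p = 0.809 by Fisher's exact test). Failed calls, which do not enter the level, made up between 34.4% and 68.7% of all calls in DMSO at the 5 sites, with a median of 49.5%, against a median of 2.78% at the other 151. In STM2457 the medians were 48.3% and 2.47%, and the part of failed calls in these values was not tested. The first Mrpl45 position was also covered in the Mettl5 dataset, where it had 7.5% of 40 WT reads, 13.3% of 30 from clone 1 and 15.4% of 39 from clone 2.

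The other 11 sites outside DRACH motifs had larger decreases, and 9 of them were called lower. Their median was 36.8% in DMSO and 4.17% in STM2457, and GGATT and GTACT were their most frequent motifs with 3 sites each. The exceptions were a Mrpl9 position already given and a CCAGT in exon 8 of Mrpl38. The CCAGT was the only site of the group outside a last exon. It had 65.2% of 46 reads with DMSO against 48.5% of 33 with the inhibitor (adjusted p = 0.178 by Fisher's exact test). Its relative decrease, 25.7%, was just above the limit used for the sites shown before. Failed calls were 52.1% of all its calls in DMSO and 42.1% in STM2457. With failed calls counted in, its levels were 31.25% and 28.1%, and the part of failed calls was not tested. Over all genes, 9 CCAGT sites had a median relative decrease of 4.76%. The 140 DRACH sites had a mean relative decrease of 79.0% ± 12.8 (SD over sites), from 38.6% to 100%.

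Of the 60 covered genes, 13 had no site. Those with the most valid calls in DMSO were Mrpl2, Mrpl33, Mrps16, Mrpl35 and Mrpl11, counterparts of bacterial uL2, bL33, bS16, bL35 and uL11. Their highest DRACH level in DMSO was 1.56% in Mrpl2, 10.9% in Mrpl33, 10.5% in Mrps16, 4.76% in Mrpl35 and 1.01% in Mrpl11. Mrpl2 and Mrpl11 had 0 covered positions in a last exon, as had Mrpl28, Mrpl37, Mrpl39 and Mrps30, also without a site. Last exons held 155 of the 156 sites, and methylation in the last exons of these 6 mRNAs was not measured. The depth was similar, with a median of 92 valid calls per position over the 13 genes and 91 over the 47 with a site. The genes without a site had a median of 2 covered DRACH positions in the last exon 100 bases or more from its junction (0 to 6), and the 47 genes with a site a median of 8 (2 to 36). Of the 3 motifs with the largest shares, 10 of the 13 genes had none covered there, against 6 of the 47. Mrpl33, Mrpl35 and Mrps15 each had 1 and no site. These 3 motifs were chosen by their shares in the same genes, and Mrps7, with none of them covered there, had 6 sites, so these counts are a description without a test.

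The share of covered genes with a site was 78.3% (47 of 60), against 65.2% (1701 of 2607) over all genes. It was 21.4% (6 of 28) for cytosolic ribosomal protein genes and 26.8% (15 of 56) for the nuclear genes of the respiratory chain. Covered genes were 60 of 78 in the group, 28 of 77 for the cytosolic ribosome and 56 of 98 for the respiratory chain. Sites per 1000 covered positions were 18.2 in the group, 13.4 over all genes, 3.11 for cytosolic ribosomal proteins and 4.65 for the respiratory chain. In DRACH positions of the last exon 100 bases or more from its junction, 28.5% reached 25% in the group, 4.48% (6 of 134) in cytosolic ribosomal protein mRNAs and 10.7% (21 of 196) in respiratory chain mRNAs. In these libraries, covered mRNAs of the mitochondrial ribosome thus held more methylated positions than those of the cytosolic ribosome and of the respiratory chain. Of the covered positions, 83.3% lay in last exons in the group, 63.1% for cytosolic ribosomal proteins and 66.4% for the respiratory chain. The median number of valid calls per position in DMSO was 84, 60 and 171 in the same order. The part of these differences in the shares was not tested. The comparison is limited to covered genes and is given without a test because positions of 1 mRNA are not independent.

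A list of 30 other genes of mitochondrial translation and ribosome assembly gave a similar picture. Of these, 10 were covered, 8 held 34 sites and 32 of the sites were lower after STM2457. Ddx28, an RNA helicase of large-subunit assembly, held 16 sites with means of 52.9% in DMSO and 14.9% in STM2457, and Gadd45gip1, a protein of the large subunit, 7 with 60.2% and 11.3%. Tsfm, the mitochondrial elongation factor Ts, held 3 with 55.4% and 8.78%, and Gfm1, elongation factor G1, 2 with 70.4% and 4.88%. Oxa1l, the insertase that receives nascent chains, and Ptcd3, a small-subunit protein, held 2 each, with 59.5% and 10.7% and with 50.1% and 14.9%. Chchd1 and Aurkaip1, both of the small subunit, held 1 each, with 93.7% and 39.4% and with 48.6% and 4.51%. Dap3, another small-subunit protein, and Slirp were covered without a site.

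In the Mettl5 dataset the 21 sites lay on Mrpl15 (4), Mrpl43 and Mrpl45 (3 each), Mrpl17, Mrps24, Mrps25 and Mrps34 (2 each) and Mrpl34, Mrpl38 and Mrpl52 (1 each). All 21 lay in last exons within 200 bases of the end of the stop codon, and 20 were in a DRACH motif. Averaged over the 21 sites, WT had 42.6%, clone 1 45.9% and clone 2 47.1%, with medians of 31.7%, 38.5% and 43.1%. Fisher's exact test against WT found 0 of 21 sites different at an adjusted p below 0.05 in clone 1 (background 0.0541%), 0 in clone 2 (background 0.162%) and 0 in both in the same direction (background 0.0541%). At an unadjusted p below 0.05 the count was 0 of 21 in each clone, against 120 of all 1847 sites in clone 1 and 142 in clone 2. In value, 9 sites were above WT in both clones and 3 below WT in both. Both clones were compared with the same WT library, and the median log2 ratio to WT was 0.14 in clone 1 and 0.25 in clone 2, against 0.07 and 0.08 over all 1847 sites. A site could reach the required level in either clone or in WT, so the choice of sites favoured higher values in the clones. Sites in Mrpl38, Mrpl43 and Mrpl45, among others, entered through a clone without WT, while the Mrpl52 site entered through WT alone. The averages, medians, directions and log2 ratios describe sites chosen in this way.

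**Figure D5:**
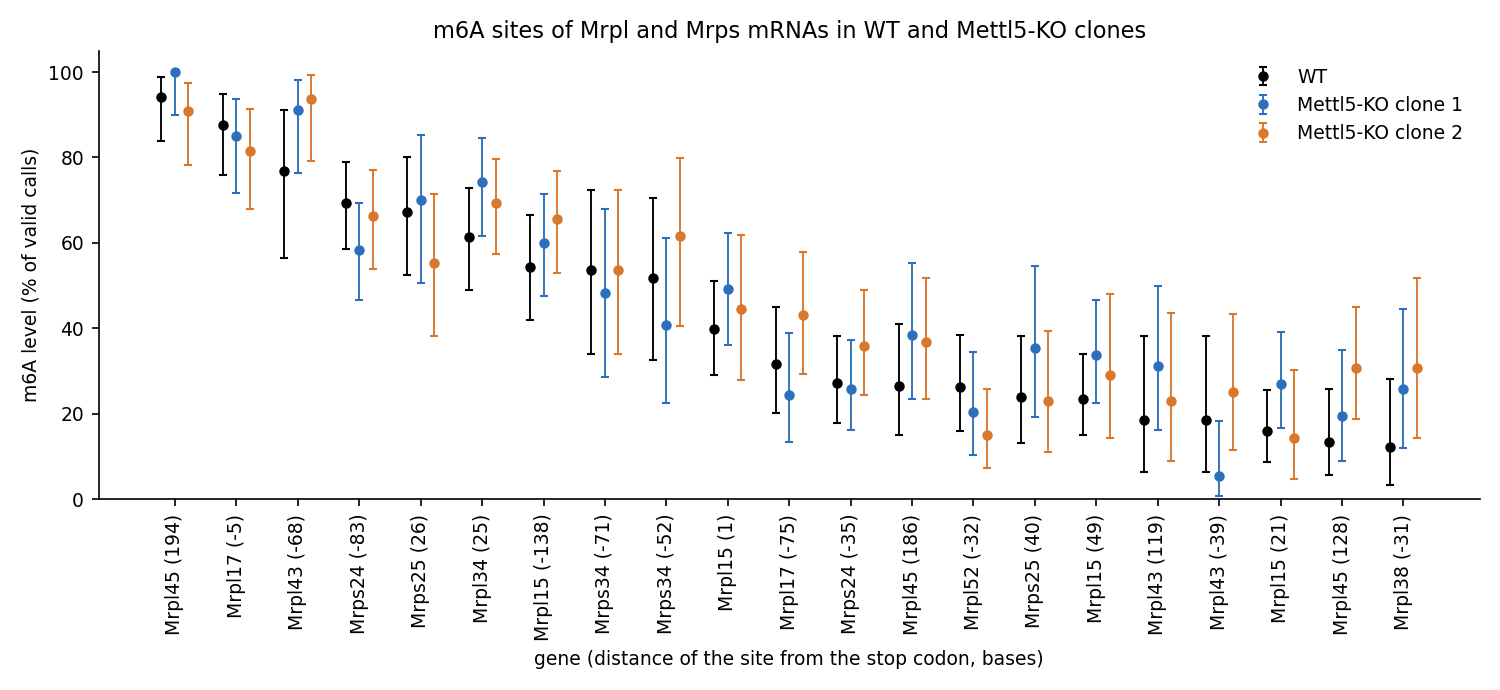
Level (y axis, % of valid calls) of the 21 sites in WT (black), Mettl5-KO clone 1 (blue) and clone 2 (orange), labelled by gene and distance from the end of the stop codon in bases and ordered by the WT level. Bars are exact 95% binomial intervals for counting error, and at each site those of the clones overlap that of WT.

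The depth limits what these 21 sites can show, as the intervals in the plot by clone make plain, with a median of 52 WT reads, 41 reads of clone 1 and 39 of clone 2. The lowest unadjusted p was 0.0573, for Mrpl45 in clone 2 by Fisher's exact test, at a GGACA 128 bases after the stop codon which had 13.5% of 52 WT reads, 19.5% of 41 from clone 1 and 30.8% of 52 from clone 2. The largest fall was at a GAACT of Mrpl43 in clone 1, with 18.5% of 27 WT reads and 5.41% of 37 from clone 1, but 25% of 32 from clone 2. So the clones differed from WT in opposite directions there. The 3 sites lower in both clones were in Mrpl52 (26.2% in WT, 20.4% and 14.9% in the clones), Mrps24 (69.4%, 58.2% and 66.2%) and Mrpl17 (87.5%, 85.1% and 81.6%), and none of these differences passed the test.

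Both datasets together covered 24 of the 156 sites, and 19 of them were sites in both. At all 19 the level in STM2457 was below that in WT and in both clones. Their medians were 53.8% in DMSO, 5.53% in STM2457, 39.8% in WT and, for the clones, 40.7% and 44.4%. The WT level was below the DMSO level at 18 of the 19, by up to 30.3 percentage points. The choice of shared sites favoured a WT level below that in DMSO. Each of them had the required level in DMSO, while in the Mettl5 dataset a clone could supply it in place of WT. The datasets also differ in cell line, treatment, batch label and depth, which cannot be told apart.

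Of the 19 sites, the Mrpl45 site 194 bases after the stop codon was the highest in each library except clone 2, with 96.8% in DMSO, 94.1% in WT, 100% in clone 1 and 90.9% in clone 2, and 46.6% in STM2457. Mrpl17 at 5 bases before the end of the stop codon had 88.5% in DMSO, 22.6% in STM2457, 87.5% in WT, 85.1% in clone 1 and 81.6% in clone 2. Mrpl43 at 68 bases before it had 83.0%, 13%, 76.9%, 91.2% and 93.8% in the same order of libraries. These 3 stayed above 75% in all libraries but STM2457. Mrpl34 had 78.5%, 12.8%, 61.4%, 74.2% and 69.4%, and Mrps24 at 83 bases before the end of the stop codon 76.7%, 15.8%, 69.4%, 58.2% and 66.2%. Mrps25 at 26 bases after the stop codon had 72.5%, 16.6%, 67.3%, 70.0% and 55.3%. At each of these 6 sites the STM2457 level was far below that of the other 4 libraries.

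Of the other 13 shared sites, the Mrps34 pair, 19 bases apart, had 71.9% and 60.4% in DMSO, 5.96% and 10.8% in STM2457, and 53.6% and 51.7% in WT. In clone 1 the pair was at 48.1% and 40.7% and in clone 2 at 53.6% and 61.5%. The 4 Mrpl15 sites had 68.6%, 50.7%, 41.9% and 53.8% in DMSO from 5′ to 3′ and between 4.69% and 11.9% in STM2457. In WT these were 54.4%, 39.8%, 15.9% and 23.5%, so the 2 downstream sites were the ones with the larger gap between DMSO and WT. In clone 1 they were 60.0%, 49.2%, 26.9% and 33.8%, and in clone 2 65.7%, 44.4%, 14.3% and 29.0%. For the remaining 7 sites, on Mrpl17, Mrpl38, Mrpl43, Mrpl45, Mrpl52, Mrps24 and Mrps25, levels ran from 26.8% to 37.2% in DMSO, from 1.79% to 5.22% in STM2457, from 12.1% to 31.7% in WT and from 5.41% to 43.1% in the clones.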

How the data were processed

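Direct RNA libraries of mESCs were basecalled with m6A models and summarised per adenosine by the authors. The deposited counts per position were valid, m6A, unmodified, other-modification and failed calls, with 25 or more valid calls in every library of a dataset at each deposited position (a covered position), and the deposited percent values were m6A over valid calls. The sources name mm10 as the build and bedtools among the tools.

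Here positions were assigned to exons of GENCODE M21 protein-coding genes on the call's strand, and sequences were read from its transcripts, which had A at 99.8% of the covered positions in mitochondrial ribosomal protein genes. Sites had more than 25 valid calls in every library and reached 25% in any library of a dataset. STM2457 was compared with DMSO, and each Mettl5-KO clone with WT, by two-sided Fisher's exact test on m6A against unmodified calls, Benjamini-Hochberg adjusted over all protein-coding sites of the dataset (threshold 0.05), and tested on simulated data. Intervals are exact (Clopper-Pearson, 95%). Valid calls totalled 71574467 in DMSO, 54051900 in STM2457, 22025887 in WT, 17897440 in clone 1 and 19532075 in clone 2.

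Genes named were up to 30 with a site, by number of sites and then coverage, and the 5 genes without a site with the most calls. Single sites named were the 10 highest in DMSO with 50 reads or more, those with a relative decrease under 25% and those in both datasets. Neighbouring pairs, stop codon sites and single exceptions were chosen after their values were seen. The members and lists were chosen with earlier results of these data known. Alternatives were thresholds of 10% and 50%, at least 25 or 50 reads, DRACH motifs only, levels with failed calls counted in, other exon sets, thinned calls, pooled calls, an adjusted p below 0.01, summed clones and leaving out each clone. Python 3.11.15 with numpy 2.4.6, scipy 1.17.1, pandas 2.3.3 and matplotlib 3.10.9 was used. Reads shared with processed pseudogenes were not examined.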

Additional observations from a re-analysis of the deposited data

Results flagged for a closer look

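Calls of a modification other than m6A, which enter no comparison above, reached 25% in both libraries of the METTL3 inhibition dataset at 3 of the 8578 covered positions of the group. In the coding sequence of Mrpl11 such calls made up 74.8% of 111 valid calls in DMSO and 70.3% of 74 in STM2457. In the 3′ UTR of Mrps35 they made up 31.3% of 67 and 32.7% of 55, and in the coding sequence of Mrps17 25.8% of 66 and 30.2% of 53. Over all 8578 positions they were 0.441% of valid calls in DMSO and 0.408% in STM2457. Failed calls at these positions were 45.0% and 57.0% of all calls in Mrpl11, 42.2% and 38.9% in Mrps35, and 25.8% and 28.4% in Mrps17, and their part in these values was not tested.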

How the results depend on the processing

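At a threshold of 10% the group had 344 sites in the METTL3 inhibition dataset and 61 in the Mettl5 dataset, and at 50% it had 89 and 9. Requiring 50 reads left 4 sites in the Mettl5 dataset. Sites lower after STM2457 numbered 86 at the 50% threshold, 219 at 10% and 146 with thinned calls, against 147. The mean relative decrease, 74.4%, was 53.7% at the 10% threshold, 77.6% with 50 reads or more, 78.4% with failed calls in the denominator, 79.0% for DRACH motifs and 76.6% from pooled calls. The mean difference of the clones from WT, 3.95 percentage points, was 0.965 at the 10% threshold, 1.82 at 50% and 4.99 with at least 25 reads, and it ran from 3.35 to 4.55 when either clone was left out. The causes of these shifts were not tested. At each threshold a site could enter through WT or either clone, which favours a higher mean in the clones. No mean changed sign, and 0 sites differed from WT in both clones under each of the 11 alternatives, summed clones and a left-out clone included. Exon sets limited to protein-coding transcripts or, an alternative chosen after seeing the data, to transcripts linked to RefSeq left all these values as they were. No paired analysis was possible because only the clones carry replicate numbers, and their WT has 1 library. With 1 library per condition for STM2457 and DMSO, no difference between them has a replicate check.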
